A study of Mus musculus with 3 samples.

Results

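The stretch of mouse chromosome 4 that holds Cdkn2a and Mtap was followed probe by probe in DNA from 3 mouse glioma lines grown as neurospheres, spheres of tumour cells in suspension. Probes were chosen by position, from 88300000 to 89100000 in the mm9 build, and numbered 56 of 170293 on the array. Of these, 2 carry the name Cdkn2a, 4 carry the name Mtap, 26 carry 11 other names and 24 carry none. The window was proposed because earlier values of these same arrays were low at Cdkn2a, so its ratios are given as a description, with no test. In lines 2 and 3 a block of 9 neighbouring probes that includes both Cdkn2a probes lay below liver, whereas line 1 was near liver over the same 9 probes. The block ended before the nearest Mtap probe, and the Mtap probes were not low in lines 2 and 3.

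Cdkn2a encodes a pair of unrelated proteins from overlapping reading frames. One is p16 (Ink4a), which blocks the cyclin D kinases and so keeps Rb active, and the other is Arf, which holds back Mdm2 and so stabilises p53. Mtap encodes methylthioadenosine phosphorylase, the enzyme that recycles methylthioadenosine, a by-product of polyamine synthesis. The genes are neighbours in mouse and in human, and the human region is among those most often deleted in glioma, with MTAP lost in many of the same tumours.

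Each line was grown from a glioma that had become resistant to inhibition of CSF1R, the receptor on which macrophages and microglia depend, and was taken at passages 2 to 3 in a neural stem cell medium. All 3 lines are resistant lines and form 1 group; no sensitive or untreated line was analysed here. Neurosphere DNA was labelled with Cy5 and DNA of mouse liver with Cy3 on the same array, so a negative log2 ratio is a lower level in the line than in liver. Line 1 has an animal number of its own, while lines 2 and 3 share another number and the same liver label. Their ratios are therefore not independent, and a difference between line 1 and lines 2 and 3 sets 1 animal against another. Strain, genotype, sex and age are not in the labels. As known of the study and not from its labels, the tumours came from a PDGF-driven mouse glioma model on a germline Ink4a/Arf-null background, a deletion that liver of the same animal would share. Whether any probed position lies in it was not determined here. The DNA is that of a whole culture, so fewer cells with a loss and fewer copies per cell cannot be told apart.

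All 3 arrays had the same design with Cy5 always on the line, so dye cannot be told apart from a difference between line and liver. The slide of each array is not among the values used here, so an effect of slide could not be separated. The noise SD of a single probe, a robust estimate from differences between neighbouring autosomal probes, was 0.38, 0.23 and 0.24 on the log2 scale. Line 1 is therefore the noisiest. Repeat spots of the same probe had a median SD of 0.13, 0.084 and 0.072. Within the window the median gap between probes was 12261 base pairs. No spot of the window was saturated or marked as an outlier.

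The 2 Cdkn2a probes and the probes on either side of both edges of the low block are shown because they fix which named sequence lay inside it and which outside. Each is a 60-base genomic oligonucleotide, written as the scanner files list it, with CG dinucleotides in capitals and positions in mm9; the strand is not given there. The last probe named Mtap, at chr4:88817932-88817991, lay outside the block, and the unnamed probe at chr4:88830688-88830747 was the first inside it. The Cdkn2a probes lie at chr4:88927265-88927324 and chr4:88936288-88936347. The last probe inside, at chr4:88946564-88946623, and the first outside, at chr4:88961708-88961767, both carry the transcript name AK148321. Exon, intron and UTR annotation of mm9 was not used here.
Mtap, last outside: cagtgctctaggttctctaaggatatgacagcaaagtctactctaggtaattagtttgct
Unnamed, first inside: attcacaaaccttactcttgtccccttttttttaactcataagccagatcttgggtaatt
Cdkn2a, first: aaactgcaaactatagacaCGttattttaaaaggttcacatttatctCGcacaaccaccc
Cdkn2a, second: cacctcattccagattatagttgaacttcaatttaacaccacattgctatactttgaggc
AK148321, last inside: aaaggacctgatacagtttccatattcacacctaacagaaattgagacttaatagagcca
AK148321, first outside: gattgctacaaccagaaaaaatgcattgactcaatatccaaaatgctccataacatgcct

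At Cdkn2a, the cell cycle inhibitor, both probes read below liver in every line, and lines 2 and 3 were lower than line 1 at each. Log2 ratios at the first probe were -0.56 for line 1, -0.78 for line 2 and -0.64 for line 3. The second had -0.09, -0.72 and -0.65. Lines 2 and 3 thus gave nearly the same value at both probes, while line 1 was low at the first and near liver at the second. The probe means were -0.33, -0.75 and -0.64, or -0.57 ± 0.22 (SD, n = 3 lines). On a linear scale these are 0.797, 0.595 and 0.640 of the liver level. A loss of 1 of 2 copies in every cell would give a log2 ratio of -1. With another background correction or dye normalisation the line 1 value was above 0, at 0.16 with normexp and 0.021 with loess, and it was -0.0024 in the deposited value table, so the direction and size of Cdkn2a in line 1 depend on the processing. Lines 2 and 3 stayed below 0 in each of those settings.

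Cdkn2a gave signal in both channels of every array. At the first Cdkn2a probe the line signal was 4615, 3179 and 3380 intensity units in lines 1, 2 and 3, and the liver signal on the same arrays was 6811, 5468 and 5275. At the second probe the line signal was 1912, 1162 and 1346, and the liver signal 2035, 1915 and 2108. Both channels were well above background at both probes on each array. The lower line signal of lines 2 and 3 is seen at both probes, whereas liver was lower on both of their arrays at the first probe and, at the second, slightly lower on that of line 2 and slightly higher on that of line 3. So liver was not at background under either probe, and in lines 2 and 3 Cdkn2a was at a lower level and not at background.

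**Figure D1:**
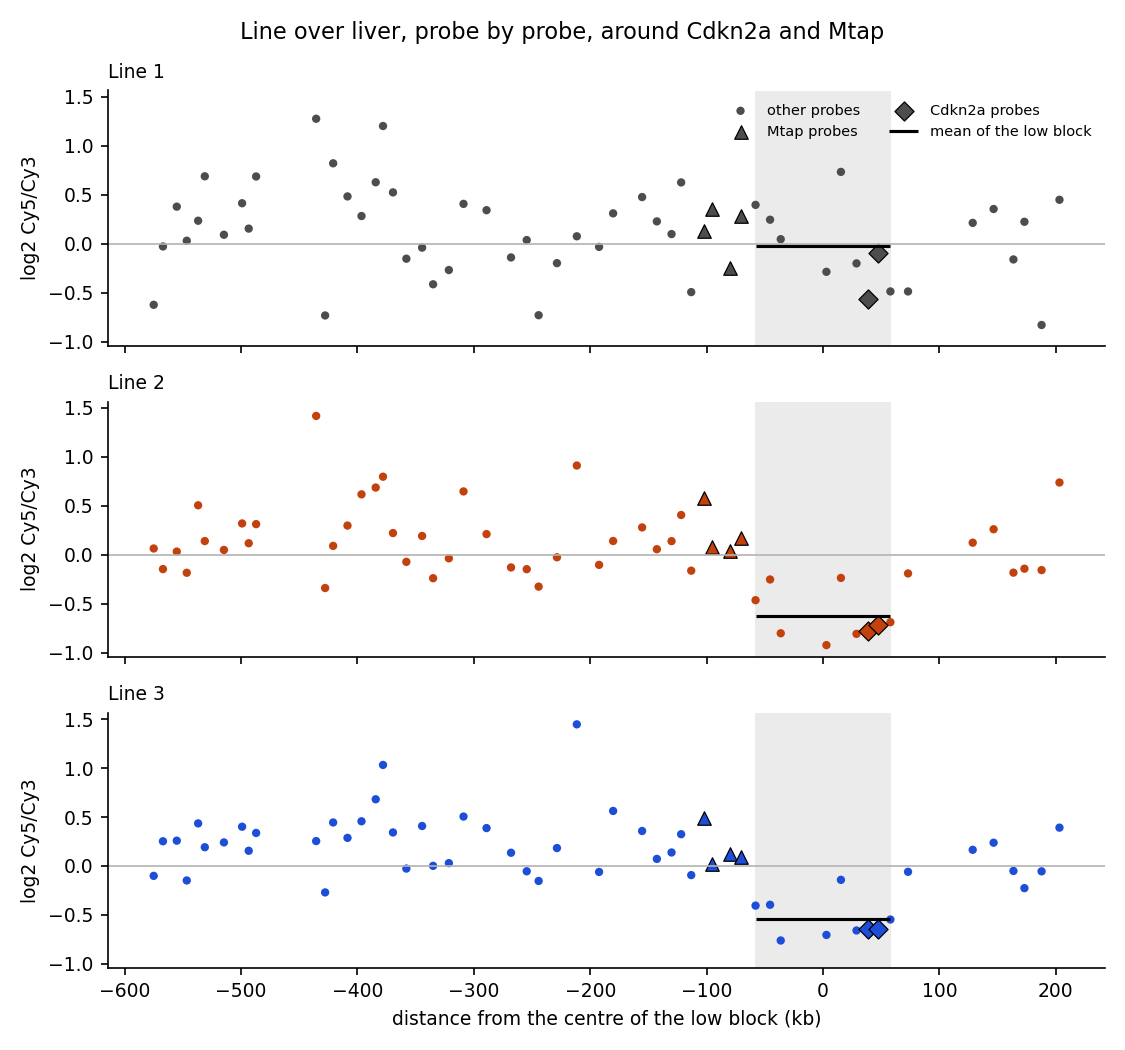
Log2 ratio of line over liver (y axis) for the 56 probes of the window against distance from the centre of the low block in kb (x axis), 1 panel per line, with Mtap probes as triangles, Cdkn2a probes as diamonds, the block shaded and its mean drawn as a bar. The block mean is -0.023 in line 1, -0.63 in line 2 and -0.54 in line 3, and the Mtap probes lie beside it at or above 0 in lines 2 and 3.

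Mtap, the methylthioadenosine-recycling enzyme next to Cdkn2a, had a mean slightly above liver in all 3 lines with the values as scanned. In line 1 that direction depended on the processing, at -0.13 with normexp, -0.010 with loess and -0.084 when centred on the rest of the window, and in line 3 the last of these gave -0.010. Its 4 probes lie between 88786555 and 88817991. The first probe had 0.13, 0.58 and 0.49 in lines 1, 2 and 3, and the second 0.35, 0.080 and 0.022. The third had -0.25, 0.042 and 0.12, and the fourth 0.28, 0.17 and 0.088. The lines overlapped at Mtap, with line 1 highest at 2 probes and lowest at the other two. The means were 0.13, 0.22 and 0.18, or 0.18 ± 0.045 (SD, n = 3 lines). Lines 2 and 3 differed from line 1 by 0.071, less than the SD of that difference over the 4 probes, 0.35. Signals at Mtap ran from 521 to 1285 in the lines and from 351 to 1176 in liver, and both channels were well above background at all 4 probes on every array.

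Beyond the named pair, the extent of the low block was read by dividing chromosome 4 into segments of at least 5 probes. In line 2 and in line 3, the segment that held the Cdkn2a probes ran from 88830688 to 88946623, which is 115936 base pairs and 9 probes. The nearest probes outside lie 12696 base pairs before it and 15084 base pairs after it, so the low block could be as long as 143716 base pairs. In line 1 the segment around Cdkn2a covered 5187 probes with a mean of 0.026, and no short segment was found. The penalty grows with the noise of each line, and the noise SD was 0.38 in line 1 against 0.23 and 0.24. A block as low as that of lines 2 and 3 could therefore go unfound in line 1, and this was not tested. In the RefSeq gene order of GRCm38.p6, used here for order only, Mtap comes before Cdkn2a and Cdkn2b, which encodes the related inhibitor p15, follows it. No probe is named for Cdkn2b, so its level was not read. Between Mtap and Cdkn2a that order lists a pair of pseudogenes and a small nucleolar RNA, and no other protein-coding gene.

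Inside the block, the first 3 probes carry no name. At the opening probe line 1 had 0.40, line 2 had -0.46 and line 3 had -0.41. The next had 0.25, -0.25 and -0.40, and the third 0.046, -0.80 and -0.76. Line 1 was above liver at all 3 while lines 2 and 3 were below it, so the step lies between the last Mtap probe and the opening probe. The 3 probes that follow carry the transcript name ENSMUST00000129527. They had -0.29, -0.92 and -0.70 at 88891592, then 0.73, -0.24 and -0.14 at 88904036, then -0.20, -0.81 and -0.66 at 88917436. The probe at 88904036 was the highest of the block in every line, and lines 2 and 3 were still well under line 1 there. After the Cdkn2a pair, the last probe had -0.49, -0.69 and -0.55, the smallest gap between the lines in the block. The first probe outside had -0.49, -0.19 and -0.060, and there line 1 was the lowest.

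Over the 9 probes, the means were -0.023 in line 1, -0.63 in line 2 and -0.54 in line 3, with SDs over probes of 0.42, 0.25 and 0.20. As linear ratios they were 0.984, 0.646 and 0.685. Since these values chose the block, they describe it and support nothing further. At or below -0.5 were 1 of 9 probes in line 1, 6 of 9 in line 2 and 6 of 9 in line 3. Over all autosomal probes 10.2% were as low in line 1, 1.37% in line 2 and 2.08% in line 3. Lines 2 and 3 were both below line 1 at 9 of 9 probes, against 39.8% of autosomal probes, with a mean difference of -0.56 (SD over probes 0.28), from -0.92 to -0.13. Line 2 was lower than line 3 by a mean difference of -0.085 (SD over probes 0.10). Without the Cdkn2a probes the other 7 averaged 0.064, -0.60 and -0.52, but low values in lines 2 and 3 chose these probes too.

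**Figure D2:**
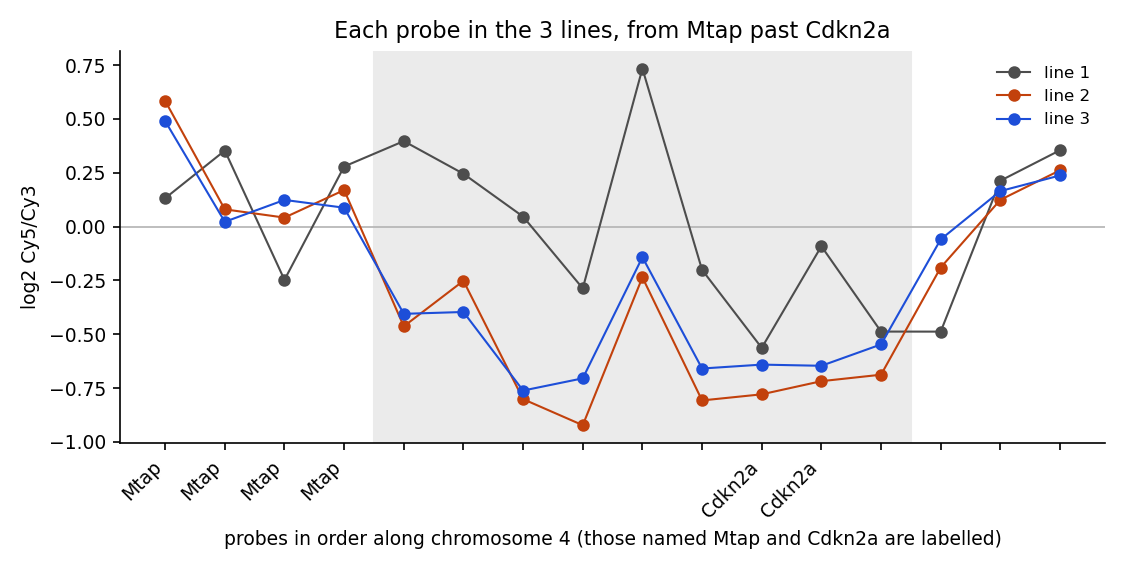
Log2 ratio of line over liver (y axis) at each probe in order along chromosome 4 (x axis, evenly spaced), from the first Mtap probe to the third probe after the low block, with 1 coloured series per line and the block shaded. Lines 2 and 3 lie under line 1 at all 9 shaded probes, and the lines cross among the Mtap probes and beyond the block.

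The signals of each channel were also taken one at a time; since a low ratio chose the block, a low Cy5 there partly restates that choice and is a description. For each channel, log2 signals were centred on the autosomal median of that array and compared between arrays at the same probe. Over the block, the Cy5 signal of lines 2 and 3 was lower than that of line 1 by a difference of -0.54 (SD over probes 0.13), from -0.78 to -0.38 over the probes. It was lower at 9 of 9 probes, against 50.4% of autosomal probes. Each line showed it, with -0.59 for line 2 and -0.49 for line 3. The liver signal differed by 0.031 (SD over probes 0.26) and was lower at 4 of 9 probes, against 51.3% of autosomal probes. The liver channel thus lay on both sides of 0 over the block. It differed at single probes, as at the first Cdkn2a probe, where liver gave -0.33, and at the last probe inside, where it gave -0.37. There the ratios differed less between the lines than the Cy5 signals did. In the other direction, liver gave 0.46 at the opening probe and 0.28 at the probe at 88904036. At these the ratio differences of -0.83 and -0.92 were larger than the Cy5 differences of -0.38 and -0.65. At the opening edge the Cy5 difference went from 0.013 at the last Mtap probe to -0.38 at the opening probe, a smaller step than in the ratio, which went from -0.15 to -0.83. At the closing edge it went from -0.51 at the last probe to 0.049 at the first outside, and the ratio difference from -0.13 to 0.36. At the Cdkn2a probes alone the Cy5 differences were -0.48 and -0.60, and over the 4 Mtap probes the mean was 0.051.

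**Figure D3:**
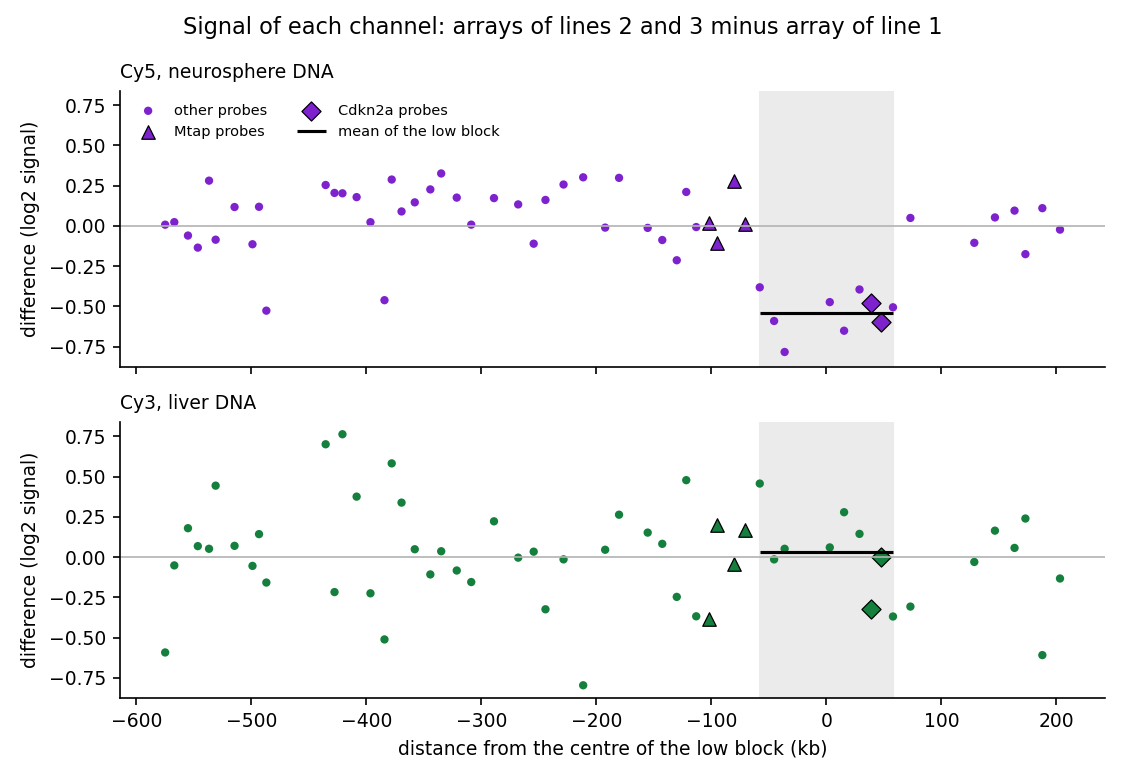
Difference in centred log2 signal between the arrays of lines 2 and 3 (mean) and the array of line 1 (y axis) for the Cy5 channel (neurosphere DNA, upper panel) and the Cy3 channel (liver DNA, lower panel), against distance from the centre of the low block in kb (x axis), with the block shaded and its mean drawn as a bar. In Cy5 all 9 shaded probes lie below 0 around a mean of -0.54, and in Cy3 they scatter on both sides of a mean of 0.031.

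Liver gave signal over the whole block. All 9 probes were well above background in both channels on every array, with liver signals from 399 to 6811, from 388 to 5468 and from 393 to 5275 on the arrays of lines 1, 2 and 3. The line signals ran from 474 to 4615, from 325 to 3179 and from 298 to 3380. Across the window, liver was well above background at 57, 59 and 60 of 60 spots, and the lines at 60 of 60 each. The window has 3 of 56 probes at which liver was not well above background at some spot, against 3.41% of autosomal probes, and none of them lies in the block. At the probe named ENSMUST00000094977, liver read only 81.7, 105 and 164, and the ratios of 1.28, 1.42 and 0.25 rest on that dim channel. The unnamed probe at 88510593 had dim liver signal on the array of line 1 and ratios of 1.20, 0.80 and 1.03. In line 1 these are the highest ratios of the window, and both probes lie before Mtap.

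Outside the block, the other 47 probes of the window read slightly above liver, with means of 0.15, 0.17 and 0.22 in lines 1, 2 and 3. Over all of chromosome 4 outside the block, these 47 included, the means were 0.0058, 0.017 and 0.017. At the 47 probes lines 2 and 3 differed from line 1 by 0.051 (SD over probes 0.33), and both were below it at 19 of them. At or below -0.5 were 4, 0 and 0 of the 47. The 40 probes before the block averaged 0.18, 0.19 and 0.25, and the 7 after it averaged -0.034, 0.065 and 0.057. Set against their own neighbours in the window and not against all autosomes, the Cdkn2a probes would read lower still, at -0.54 in line 1, -0.87 in line 2 and -0.83 in line 3, and the block in line 1 at -0.24.

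The 10 other names outside the block, or partly in it, are names of the array's design, most of them transcript names. None of the 10 matched a RefSeq symbol as written. AK144774, with 3 probes, averaged 0.31, 0.16 and 0.24, and ENSMUST00000123455, with 1 probe, had 0.41, 0.32 and 0.40. AK144962, with 5 probes, averaged -0.19, 0.057 and 0.31. This last name holds the largest rise of lines 2 and 3 over line 1 in the window, at 88677115, where the ratios were 0.076, 0.91 and 1.45. The larger share lay in liver, with a Cy3 difference of -0.80 against a Cy5 difference of 0.30. Liver gave 469 on the array of line 1 and 276 and 258 on the other two, and the line signals were 495, 518 and 704. Gm12603, with 2 probes, averaged 0.14, 0.019 and 0.25, and AK144841, with 1, had 0.23, 0.057 and 0.072. ENSMUST00000154352, with 2 probes before Mtap, averaged 0.36, 0.27 and 0.23. At 4 of these names before Mtap, lines 2 and 3 were both below line 1, and they were above liver at each of the 4. At the other names before Mtap, AK144962, Gm12603 and ENSMUST00000094977, they were not both below line 1. Both were below line 1 at 39.8% of single autosomal probes. After the block, ENSMUST00000129908 averaged 0.032, -0.16 and -0.14 over 2 probes, and AK148321, which spans the edge with 1 of its 5 probes inside, averaged -0.25, -0.13 and -0.052. The last probe of the window, named ENSMUST00000139272, had 0.45, 0.74 and 0.39, and the first probe after the window bears the same name and had 0.17, 0.56 and 0.33. At the other end, the first probe in the window had -0.62, 0.065 and -0.10 and the last probe before it -0.37, -0.13 and 0.018.

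The block was then set against every run of 9 neighbouring autosomal probes, 161297 in all, as a description. In line 2, 4 runs were at or below the block, itself included. In line 3, 7 were. In line 1, 44.0% of runs were as low. A mean at or below -0.5 was found in 0.0254% of runs in line 1, 0.00682% in line 2 and 0.00496% in line 3. The other runs at or below the block in lines 2 and 3 all lay within Ctnna2, an alpha catenin gene on chromosome 6, between 77623917 and 77748296. Line 1 was also low in Ctnna2, with -0.30 where lines 2 and 3 had -0.74 and -0.75. A difference of lines 2 and 3 from line 1 at or below -0.5 was found in 0.00124% of runs, which is 2 overlapping runs, both over this block. In the Cy5 channel alone, 10 runs (0.0062%) had a difference as low as that of the block, itself included. The positions of the others were not read.

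**Figure D4:**
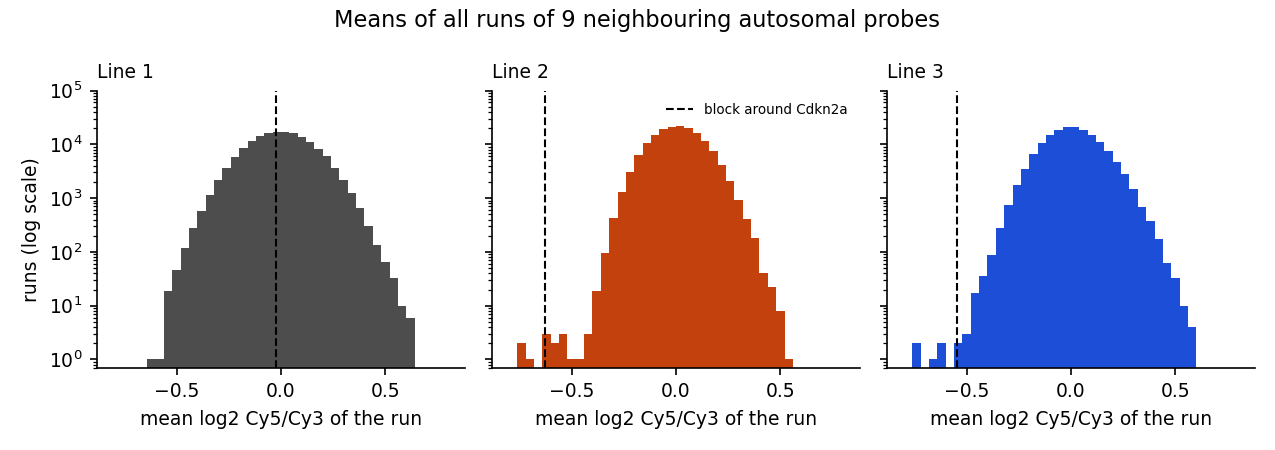
Number of runs of 9 neighbouring autosomal probes (y axis, log scale) by their mean log2 ratio of line over liver (x axis), 1 panel per line, with the mean of the block around Cdkn2a as a dashed line. The dashed line falls in the middle of the runs in line 1 (-0.023) and at their low end in line 2 (-0.63) and line 3 (-0.54).

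Among genes with at least 3 probes elsewhere, those whose 3 line means lay nearest to the block by Euclidean distance were taken from 9082 genes. They were Vmn2r90 on chromosome 17 (distance 0.34), with -0.15, -0.38 and -0.35, and Vmn2r61 on chromosome 7 (0.39), with -0.20, -0.39 and -0.28, both vomeronasal receptor genes. Cyp2c70, a cytochrome P450 gene on chromosome 19, lay at 0.41, with -0.073, -0.27 and -0.37. Next were ENSMUST00000061000 at 0.43 and 5830405N20Rik at 0.45. None of the 5 came as low in lines 2 and 3 as the block did.

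Elsewhere in the genome, the genes that act with p16 and Arf were read from a list of 23, of which 8 had the 3 probes needed for a test. Gene means were tested against 0 with limma, 2-sided, with Benjamini-Hochberg adjustment over 9462 genes; its p-values rest on the spread of 3 lines, a pair of which share an animal. Over all genes 14.2% were called above liver and 9.95% below it, with a median of 0.011. Of the 8, 2 were called above, 1 below, and the list median was 0.024. An unadjusted limma p under 0.05 was found for 4 of the 8, against 3770 of all 9462 genes. With lines 2 and 3 averaged as 1 animal the list had 1 call, as it did with normexp background correction or without line 3. Over all genes there were 2284 calls, 724 with lines 2 and 3 averaged, 1082 without line 2 and 1223 without line 3. The split was 1343 above and 941 below, and 858 and 1100 with the deposited value table.

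Among the partners of p16, Ccnd3, a cyclin D, was above liver in all 3 lines, with 0.19, 0.35 and 0.44 over 11 probes on chromosome 17 (0.33 ± 0.13 SD, limma adjusted p = 0.00672, and 2.54e-10 to 0.0441 in the other settings). E2f3, a transcription factor that Rb restrains, was below liver in all 3, with -0.25, -0.15 and -0.23 over 8 probes on chromosome 13 (-0.21 ± 0.049 SD, limma adjusted p = 0.0118, and 0.000773 to 0.0569 in the other settings). Cdk6, a kinase that p16 blocks, had -0.16, -0.0026 and -0.021 over 13 probes (limma adjusted p = 0.346). Rb1, the target of that kinase, had -0.063, 0.0056 and 0.0079 over 15 probes (limma adjusted p = 0.782). On the side of Arf, Mdm4, a p53 inhibitor, had 0.24, 0.069 and 0.18 over 4 probes on chromosome 1 (0.16 ± 0.086 SD, limma adjusted p = 0.0372, and 0.0252 to 0.134 in the other settings). Mdm2, which Arf restrains, had 2 probes, with means of 0.23, 0.011 and 0.081, and Trp53, which encodes p53, had 2 with 0.43, 0.39 and 0.37. Neither had enough probes to be tested. Ezh2, a Polycomb methyltransferase gene whose product represses the Cdkn2a locus, was the remaining list gene with an unadjusted limma p under 0.05. Over all genes, 3770 of 9462 had such a p, and Ezh2 was not called. It had -0.031, -0.16 and -0.14 over 7 probes on chromosome 6 (limma adjusted p = 0.102, and 0.00979 to 0.771 in the other settings). Lines 2 and 3 were below line 1 there, by less than at Cdkn2a. Of single autosomal probes, 39.8% were lower in both of these lines than in line 1. The same share over gene means was not counted.

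For Mtap, a list of 16 genes of methylthioadenosine and polyamine metabolism had 2 with enough probes. The limma test called 0 of them, and the median of the pair was -0.035. An unadjusted limma p under 0.05 was found for 1 of the 2, against 3770 of all 9462 genes. Enoph1, a later step of methylthioadenosine recycling, had 0.017, 0.055 and 0.0019 (limma adjusted p = 0.666). Sms, the spermine synthase gene on the X chromosome, had -0.077, -0.12 and -0.085 (limma adjusted p = 0.114). Prmt5, whose product methylthioadenosine inhibits, had 1 probe, with 0.33, 0.17 and -0.071, and was not tested.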

How the data were processed

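Genomic DNA of 3 neurosphere lines (Cy5) and of mouse liver (Cy3) was hybridised to 3 Agilent arrays. The authors ran Agilent Feature Extraction 10.7.3.1, per the file headers, and the processed intensity of each spot is background-subtracted and dye-normalised, with positions on mm9. The deposited value table holds log10 values made by the authors, with column medians of 0.000435, -0.00146 and -0.00271, and correlated at 0.867, 0.844 and 0.884 with the log10 ratios of the scanner files; its centring is not given in the sources here.

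Control spots and outlier spots were left out (180880 spots, 174305 of them no control), and spots of a probe were averaged. The log2 ratio of Cy5 over Cy3 was centred on the median of 161449 autosomal probes. Chromosome 4 was segmented by penalised least squares (penalty 2 times log(n) times the noise variance, at least 5 probes), and the block is the segment around the Cdkn2a probes in lines 2 and 3. For every gene with 3 or more probes, the mean was tested by limma 3.58.1 in R 4.3.3 (moderated statistics from eBayes, 2-sided, threshold 0.05 after Benjamini-Hochberg adjustment); other steps used Python 3.11.15, numpy 2.4.6 and pandas 2.3.3. Segmentation and gene test were checked on simulated data. The simulated block was planted lower than the block described here, so that check does not cover a block of its size. Alternatives were normexp (offset 50), loess, the value table, leaving out dim probes, other penalties and minimum lengths, and leaving out each line.

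Members, lists and tests were chosen with earlier results of these data known. Named were Cdkn2a, Mtap, every name in the window, list genes past the threshold, Cdkn2b, Mdm2, Trp53, Cdk6 and Rb1, and the 5 genes outside with line means nearest to those of the block; Ctnna2, Ezh2, Enoph1, Sms and Prmt5 were added after their values were seen. Gene names come from the array's own annotation, and 2 of 13 in the window match a RefSeq symbol. The number of arrays limits precision.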

Additional observations from a re-analysis of the deposited data

How the results depend on the processing

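Over the low block, 29 of 29 values stayed below 0 under the alternatives run for them. These are ratios in lines 2 and 3, differences from line 1 and Cy5. Low values in lines 2 and 3 chose the block, so the count is a description and no support for it. No spot of the block was dim or an outlier, so the alternatives for such spots changed none of its spots. Cdkn2a in line 1 changed sign, to 0.16 with normexp and 0.021 with loess, was -0.0024 with the value table and was -0.54 when centred on the rest of the window; the cause was not tested. Its other values moved by more than the small SD over its probes, in line 2 to -0.63 with normexp, -0.60 with loess, -0.60 with the value table and -0.87 when centred on the rest of the window, and in line 3 to -0.55, -0.47, -0.47 and -0.83, and -0.64 without dim probes. With a penalty of 5 times log(n) the segment around Cdkn2a grew to 2771 probes in line 2 and 9976 in line 3, so no short block was found. With at least 10 probes a segment it held 10 probes in each line. Mtap in line 1 was below 0 with normexp, loess and window centring (-0.13, -0.010 and -0.084), as was line 3 with the last (-0.010). The block in line 1 ran from -0.24 with window centring to 0.074 with normexp. An alternative chosen after seeing the data, segmenting the difference of lines 2 and 3 from line 1, gave 8 probes, from 88830688 to 88936347. Runs as low as the block in lines 2 and 3 numbered 4, and 7 with normexp.

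Calls over all genes numbered 2284, 4766 of 21138 with at least 1 probe a gene, 724 with lines 2 and 3 averaged, and 1082 to 3170 when a line was left out. The list around p16 and Arf had 3 calls, 5 with at least 1 probe, 1 with normexp, 1 with averaged lines and 1 to 4 without a line. The Mtap list had 0, but 2 with at least 1 probe, 1 with medians over probes and 1 with the value table. No paired analysis was possible because all lines belong to 1 group. With 2 animals and no dye swap, no difference between animals could be tested. Dim liver signal limits the highest ratio of the window in line 1 and in line 2. In line 3 the highest ratio, 1.45, had liver well above background.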
